A study of Psychotria gabriellae and Psychotria semperflorens with 6 samples.

Results

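In leaves of 2 wild Psychotria species, 357 assembled transcripts (contigs) were more abundant in each of the 4 plants taken at Monts Koghi than in both plants taken at Rivière Blanche. These 357 come from 60899 contigs in all, of which 23459 averaged at least 3 CPM over the 6 libraries (CPM, counts per 1000000 reads of a library). A contig was included if it passed that minimum, if its higher value at Rivière Blanche lay below its lowest value at Monts Koghi, and if its mean log2(CPM + 0.5) was at least 2 higher at Monts Koghi. The members were thus chosen by their CPM at the sites, and their values on that contrast are given as a description with no test. The 357 made up 1.52% of the 23459 contigs. The same rule with the sites exchanged found 80 contigs, or 0.341%. Only transcripts held in the assembly could enter either count.

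Both species are shrubs of the coffee family endemic to New Caledonia. Psychotria gabriellae is a nickel hyperaccumulator and P. semperflorens, the species it was set against, is a non-accumulator. At Monts Koghi, P. gabriellae was represented by plant 3, collected on 4 November, and plant 1, collected on 30 October. P. semperflorens was represented there by plant 1 from 4 November and plant 3 from 30 October. At Rivière Blanche, 1 plant of each species, numbered 2, was collected on 10 March of the next year. All 6 plants grew wild in rain forest on serpentine soil, the labels name no treatment, and each library came from the leaves of 1 individual. The sites were visited in different seasons, so their effects cannot be told apart.

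Serpentine soils form on ultramafic rock, and they are rich in nickel and poor in several plant nutrients. A hyperaccumulator moves the metal from the root to the shoot and stores it in leaf tissue, while most plants on the same soil keep it out of their leaves. Messenger RNA levels in leaves of field-grown plants are generally known to follow the season, the time of day, the age of the leaf and the weather. The files give contig identifiers and counts alone, so no gene name, function or sequence is stated for any contig.

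The libraries held between 29905486 and 62064930 reads on the contigs, and 10 reads corresponded to 0.161 to 0.334 CPM. P. gabriellae plant 1 stood apart, with 2 contigs at 0 reads against 2062 to 3425 in the other 5 libraries. The contigs are those of a P. gabriellae assembly, and the labels do not say which plant was assembled. Whether the assembly favours plant 1, and with it Monts Koghi, was not tested. Several results that rest on P. gabriellae plant 1 are therefore also given without it. The day difference of P. gabriellae cannot be, since it is the value of plant 3 minus that of plant 1. Scaled library sizes (TMM factors 0.899 to 1.18) were lowest relative to the total in P. semperflorens plant 2 and highest in P. gabriellae plant 3. Several counts between plants were read on both scales. Where a single value is given, it is on column totals. In whole leaves, fewer cells of a type and less RNA per cell cannot be told apart.

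The 357 contigs held a larger share of the reads on contigs at Monts Koghi, a direction that the rule fixes, so the shares describe its size. Of the reads of P. gabriellae, they held 2.16% in plant 3 and 8.14% in plant 1. Of those of P. semperflorens, they held 1.94% in plant 1 and 3.35% in plant 3. At Rivière Blanche the share was 0.246% for P. gabriellae and 0.526% for P. semperflorens. The share in P. gabriellae plant 1 was more than that in any other plant, and 3 contigs made up 4.59 of its 8.14 percentage points. Without these 3, the shares were 1.09%, 3.56%, 0.844% and 2.1% in the same order at Monts Koghi, against 0.0901% and 0.166% at Rivière Blanche. The 80 contigs of the exchanged rule held 0.0921% to 0.146% at Monts Koghi, against 0.605% of the P. gabriellae reads and 0.508% of the P. semperflorens reads at Rivière Blanche.

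The typical contig of the set was of moderate abundance. The median of the mean level was 10.5 CPM, with a range of 3.03 to 5939.6 CPM. Of the 357, 185 averaged at least 10 CPM, 31 at least 100 CPM and 4 at least 1000 CPM. In P. gabriellae, the median level was 8.23 CPM in plant 3, 23.8 CPM in plant 1 and 0.709 CPM in plant 2, the last from Rivière Blanche. In P. semperflorens, it was 6.31 CPM in plant 1, 14.8 CPM in plant 3 and 1.22 CPM in plant 2, again from Rivière Blanche. Within Monts Koghi, the plants of 30 October thus had the higher median in each species.

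**Figure D1:**
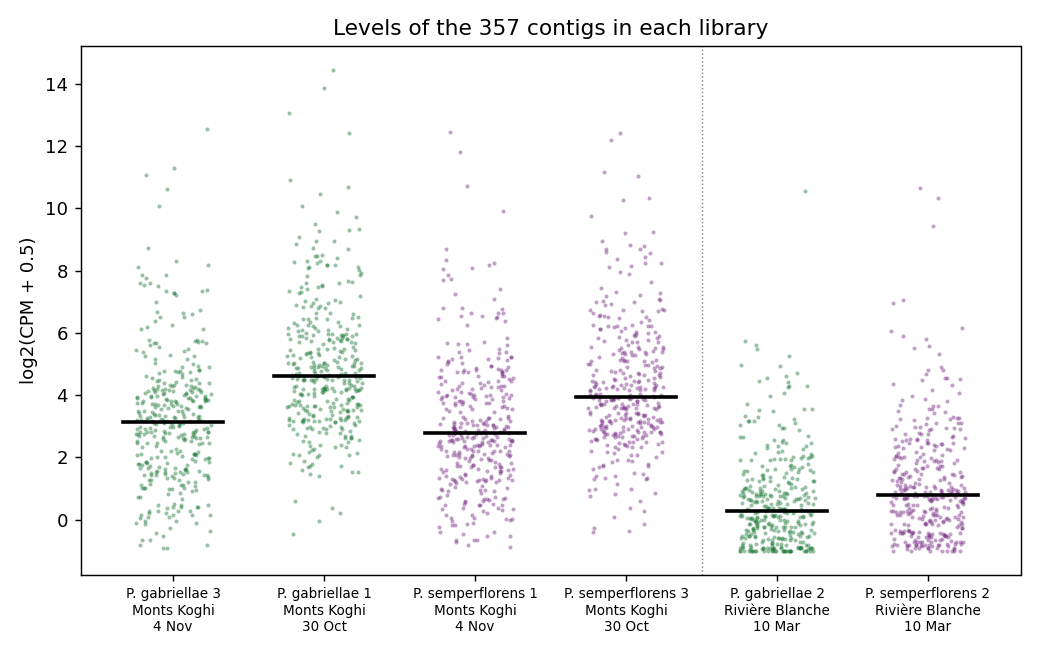
Level of each of the 357 contigs, as log2(CPM + 0.5), in each library, with the Monts Koghi libraries left of the dotted line. Points are contigs and black bars are medians, which correspond to 6.31 to 23.8 CPM at Monts Koghi and to 0.709 and 1.22 CPM at Rivière Blanche.

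The difference of mean log2(CPM + 0.5) between the sites, Monts Koghi minus Rivière Blanche, had a median of 2.65 and quartiles of 2.30 and 3.32. It was at least 3 in 128 contigs, at least 4 in 44, at least 5 in 20 and at least 6 in 4. The gap between the nearest plants of the sites was narrower. Leaving aside 3 contigs without a read at Rivière Blanche, the median ratio of the lowest Monts Koghi plant to the higher Rivière Blanche plant was 1.95. This ratio was under 1.5 in 112 contigs, at least 4 in 67 and at least 10 in 19. The members just above the limit were Pgab_v2_contig_8166, at 2.001, and Pgab_v2_contig_9427, at 2.004. Just below it, with the other conditions met, lay Pgab_v2_contig_12946, at 1.998, and Pgab_v2_contig_2973, at 1.997. Pgab_v2_contig_8166 was at 51.3 to 231 CPM at Monts Koghi, against 30.7 and 27.7 CPM at Rivière Blanche, and Pgab_v2_contig_9427 at 54.0 to 121 CPM, against 8.51 and 45.1 CPM. Pgab_v2_contig_12946 was at 0.936 to 11.4 CPM, against 0.838 and 0.808 CPM, and Pgab_v2_contig_2973 at 4.73 to 22.7 CPM, against 3.42 and 0.842 CPM.

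Pgab_v2_contig_404 had the widest gap between the sites. It was at 1073 CPM in P. gabriellae plant 3, 1909.6 CPM in P. gabriellae plant 1, 955 CPM in P. semperflorens plant 1 and 1299.7 CPM in P. semperflorens plant 3. At Rivière Blanche it was at 1.60 CPM in P. gabriellae plant 2 and 1.29 CPM in P. semperflorens plant 2, from 99 and 75 reads. The Monts Koghi plants lay within 2-fold of each other, at 1309 ± 425 CPM (SD, n = 4), and the lowest of them was 599-fold above the higher Rivière Blanche plant. The site difference on the log2 scale was 9.42 in P. gabriellae, against 9.28 in P. semperflorens, with a fitted interaction of 0.19 (SE 0.91; edgeR adjusted p = 0.987).

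The most abundant contigs of the set behaved differently from this one. Pgab_v2_contig_108 was at 2524 CPM in P. gabriellae plant 3, 22351 CPM in P. gabriellae plant 1, 3625.5 CPM in P. semperflorens plant 1 and 5487 CPM in P. semperflorens plant 3. At Rivière Blanche it was at 29.8 CPM in the P. gabriellae plant but at 1621 CPM in the P. semperflorens plant. Pgab_v2_contig_73 had a like profile, with 2150.4, 8574, 5665 and 4729 CPM at Monts Koghi in the same order of plants, against 9.64 CPM in P. gabriellae plant 2 and 1291 CPM in P. semperflorens plant 2. In both contigs the gap between the sites was wide in P. gabriellae, 7.95 and 8.73 on the log2 scale, and narrower in P. semperflorens, 1.46 and 2. The edgeR test of that difference gave adjusted p = 0.573 and 0.481.

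Pgab_v2_contig_40 was at 6031 CPM in P. gabriellae plant 3, 14931 CPM in P. gabriellae plant 1, 1682 CPM in P. semperflorens plant 1 and 2288 CPM in P. semperflorens plant 3. At Rivière Blanche it was at 1516 CPM in P. gabriellae plant 2 and 684 CPM in P. semperflorens plant 2. It met the rule narrowly, since the lowest Monts Koghi plant was 1.11-fold above the higher Rivière Blanche plant. Pgab_v2_contig_84 was at 166 and 265 CPM in the plants of 4 November and at 5479 and 1228 CPM in those of 30 October, P. gabriellae before P. semperflorens. It was at 38.1 CPM in P. gabriellae plant 2 and 124 CPM in P. semperflorens plant 2.

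Wide gaps between the sites also occurred in contigs that varied strongly within Monts Koghi. Pgab_v2_contig_19016 was at 1578 CPM in P. gabriellae plant 3 and 2098 CPM in P. semperflorens plant 3, but at 3.71 CPM in P. gabriellae plant 1 and 98.5 CPM in P. semperflorens plant 1. At Rivière Blanche it was at 1.19 and 0.756 CPM, so that P. gabriellae plant 1 lay close to the plants of that site. Pgab_v2_contig_655 was at 5.05 CPM and 60.2 CPM in P. gabriellae plants 3 and 1 and at 324 CPM and 348 CPM in P. semperflorens plants 1 and 3, against 0.129 CPM and 1.12 CPM at Rivière Blanche. Its levels at Monts Koghi were higher in both P. semperflorens plants.

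**Figure D2:**
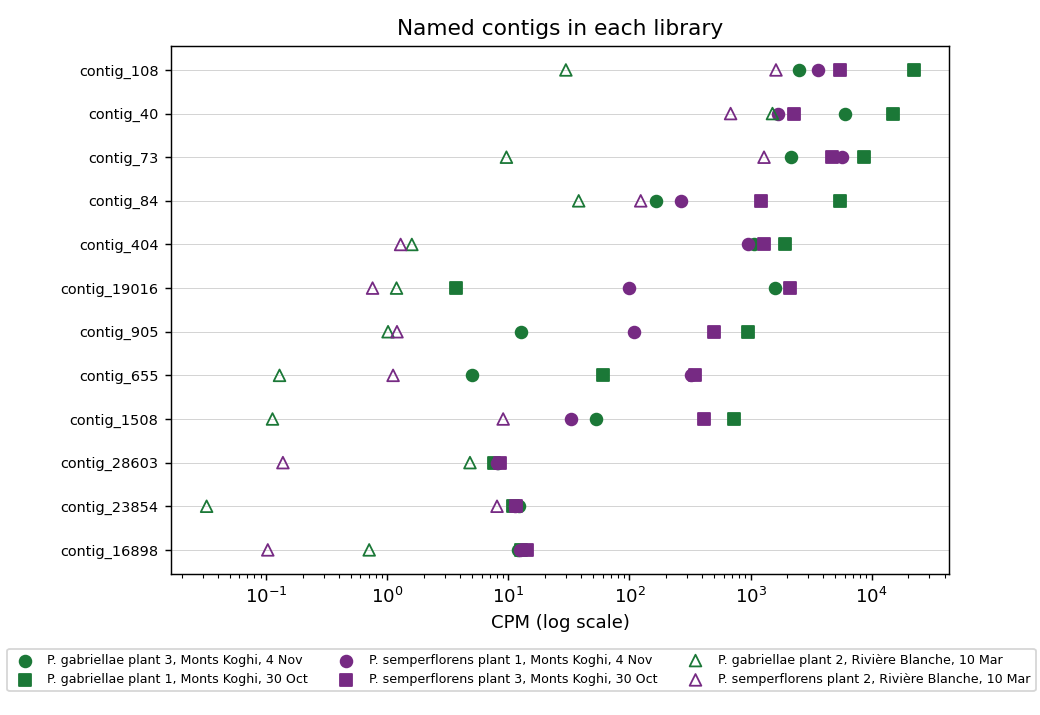
CPM, on a log scale, of 12 contigs in each library: the 5 most abundant, the 5 with the widest gap between the sites (contig_404 is in both groups) and the 3 steadiest over the Monts Koghi plants. Filled symbols are Monts Koghi plants, open triangles Rivière Blanche plants. The 4 filled symbols of contig_404 lie between 955 and 1909.6 CPM and its triangles at 1.60 and 1.29 CPM.

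A small part of the set was level over the Monts Koghi plants. In 25 of the 357 contigs, or 7.00%, the highest Monts Koghi plant was at most 2-fold above the lowest, against 44.4% of the 23459 contigs above the CPM minimum. The range exceeded 16-fold in 127, or 35.6%, against 4.98%. The median of this ratio was 8.88 in the set and 2.15 in the 23459 contigs. The limit on the mean difference can be met through 1 very high plant, so the wider range is in part built into the choice of the contigs.

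The 3 steadiest contigs showed how differently the Rivière Blanche plants could behave. Pgab_v2_contig_16898 was at 12.1, 12.6, 12.6 and 14.2 CPM at Monts Koghi in the same order of plants, against 0.709 CPM in P. gabriellae plant 2 and 0.103 CPM in P. semperflorens plant 2. Pgab_v2_contig_23854 was at 10.8 to 12.3 CPM at Monts Koghi, against 0.0322 CPM from 2 reads in P. gabriellae plant 2 and 8.06 CPM in P. semperflorens plant 2. Pgab_v2_contig_28603 was at 7.66 to 8.52 CPM at Monts Koghi, against 4.82 CPM in P. gabriellae plant 2 and 0.137 CPM from 8 reads in P. semperflorens plant 2. Only the first of these was low in both species at Rivière Blanche. In the other two, 1 Rivière Blanche plant lay little below the Monts Koghi plants, and which species held that plant differed.

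Some contigs of the set were near the limit of detection at Rivière Blanche, where the rule asks for low values. In P. gabriellae plant 2, 30 of the 357 had no read and 78 had under 10. In P. semperflorens plant 2, 8 had no read and 51 had under 10. Both plants were under 1 CPM in 129 contigs. No contig of the set was at 0 in any Monts Koghi plant, as the rule requires.

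The 3 contigs without a read in either Rivière Blanche plant had very different Monts Koghi profiles. Pgab_v2_contig_31732 had 13.9, 6.95, 6.55 and 15.8 CPM in the Monts Koghi plants, in the order used for the shares of reads. Together the Rivière Blanche libraries held 120266847 reads, where 0 observed reads allow up to 3, or 0.0249 CPM, so its mean at Monts Koghi was at least 433-fold higher. Pgab_v2_contig_26681 and Pgab_v2_contig_6056 reached 21.3 and 21.8 CPM in P. gabriellae plant 1 and stayed at or below 1.49 CPM in the other Monts Koghi plants. The bound covers counting error only.

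The first comparison that the rule did not use was that of the days at Monts Koghi. On each day 1 plant of each species was taken there. The comparison rests on Monts Koghi values that the rule did use, and a contig can pass the CPM minimum through 1 plant. Most contigs of the set were lower on 4 November than on 30 October. Both plants of 4 November lay below both plants of 30 October in 202 of the 357 contigs, or 56.6%, against 11.2% of the 23459 contigs above the CPM minimum, which serve as the background below. The reverse held in 10 contigs, or 2.80%, against 13.1%. On TMM-scaled sizes the counts were 198, with a background of 11.8%, and 13, with a background of 12.1%.

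The same direction was present in each species taken alone. P. gabriellae was lower on 4 November in 273 contigs, or 76.5%, against 35.7% of the background (80.1% against 51.8% on TMM-scaled sizes). P. semperflorens was lower on 4 November in 296 contigs, or 82.9%, against 57.9% (77.6% against 42.6% on TMM-scaled sizes). Both species were lower in 235 contigs, against a background of 19.5%, and both were higher in 23, against 25.8%. A value at least 2 lower on the log2 scale occurred in both species in 70 contigs, against 0.831% of the background. A difference of that size in the other direction occurred in 1 contig, against 0.0384%. Wide ranges at Monts Koghi are in part built into the choice of the contigs, so these counts by size only describe the set. P. semperflorens of 30 October lay above both plants of 4 November in 231 contigs, or 64.7%, against 28.2%. The median difference, 4 November minus 30 October, was -1.63 in P. gabriellae, against 0.25 for the background. In P. semperflorens it was -1.25, against -0.10.

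Within the set, the size of the difference between the days was also related between the species. Across the 357 contigs, Pearson's r of the day difference in P. gabriellae with that in P. semperflorens was 0.34 and Spearman's rho 0.41. Across the 23459 background contigs they were 0.05 and -0.07. The rule used the values of all these libraries, and wide ranges at Monts Koghi are in part built into the choice of the contigs. The correlations therefore only describe the set. Contigs are not independent replicates, and each day difference rests on 1 plant per day.

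**Figure D3:**
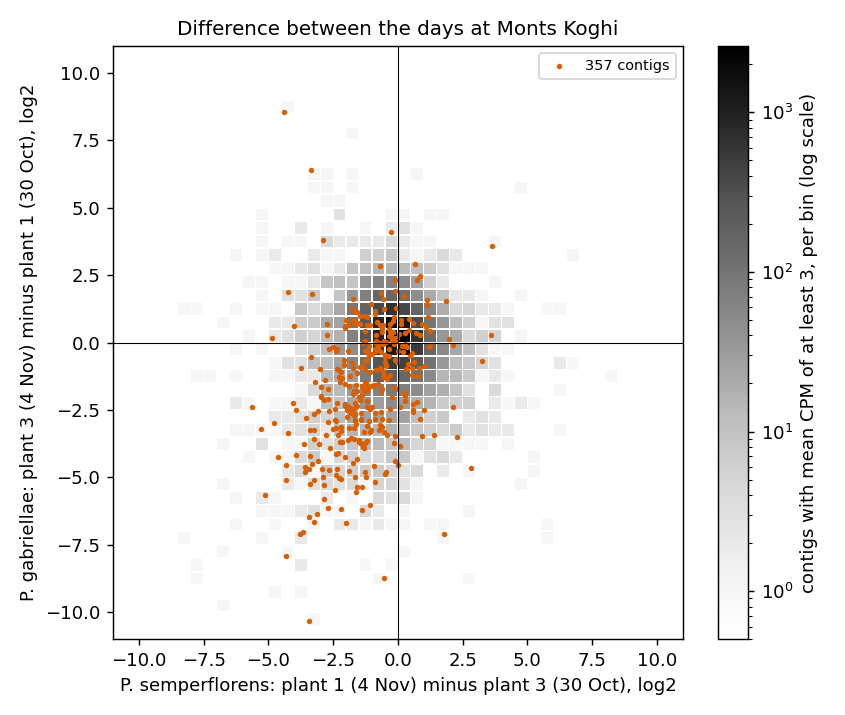
Difference between the days at Monts Koghi, 4 November minus 30 October on the log2(CPM + 0.5) scale, in P. semperflorens (horizontal) and in P. gabriellae (vertical). Orange points are the 357 contigs and grey squares count the 23459 background contigs; 235 orange points lie to the lower left, where both species were lower on 4 November.

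P. gabriellae plant 1, one of the plants of 30 October, contributed much to this pattern. The day difference of P. semperflorens does not contain that plant, which can bear on it only through the choice of the contigs. Plant 1 was the highest Monts Koghi plant in 195 of the 357 contigs, against 20.8% of the background (213 against 27.7% on TMM-scaled sizes). P. semperflorens plant 3, also from 30 October, was the highest in 79, or 22.1%, close to the background of 21.2%. On TMM-scaled sizes it was the highest in 67, or 18.8%, against 16.8%. The highest plant was at least 4-fold above the next in 47 contigs, against 1.89% of the background, and 34 of these were highest in P. gabriellae plant 1. P. gabriellae plant 3 was the highest in 59, against 37.1%, and P. semperflorens plant 1 in 24, against 21%. On TMM-scaled sizes these were 45, against 22.7%, and 32, against 32.8%. With plant 1 left out, the rule found 292 contigs, 245 of them among the 357. In 223 of these 292, or 76.4%, P. semperflorens was lower on 4 November, against 57.7% of the contigs above the minimum in the other 5 libraries. In 164 of them, or 56.2%, P. semperflorens plant 3 lay above both plants of 4 November, against 28.0%. This choice still used the values of both P. semperflorens plants of Monts Koghi, so these counts are a description and no independent check.

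By edgeR, no single contig passed the test of the days. The comparison was fitted over all contigs with species and collection day in the model, where 354 of the 357 passed the filter on low counts. edgeR's quasi-likelihood test called 0 of the 354 and 0% of the 53478 contigs tested at an adjusted p under 0.05. At an unadjusted p under 0.05 it found 143 of the 354, 137 lower and 6 higher on 4 November. Of all contigs tested, 3.39% were at that level, 2.64% lower and 0.754% higher. All contigs tested include those under the CPM minimum. The wider range of the set at Monts Koghi is in part built into its choice, so its counts by p-value are a description. Limma-voom called 0, with 165 at an unadjusted p under 0.05, against 3.77% of all contigs. DESeq2 called 83 lower and 1 higher, where it called 0.709% and 0.0729% of all contigs, 0.782% in all. The median log2 fold change of the 354 was -1.56, against -0.01 for all contigs tested, with 299 below 0 and 55 above. Without P. gabriellae plant 1 the median was -0.89, with 248 below 0 and 106 above, and 71 contigs were lower and 6 higher at an unadjusted p under 0.05, against 3.16% of all contigs. Without P. gabriellae plant 3, 62 were lower and 4 higher at that level, against 3.48%.

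The contigs with the most negative fitted difference between the days were far above their other values on 30 October. Pgab_v2_contig_2061 had 0.702 CPM in P. gabriellae and 0.109 CPM in P. semperflorens on 4 November, against 60.4 CPM and 20.9 CPM on 30 October. The fitted log2 fold change was -6.88 (SE 1.37; edgeR adjusted p = 0.9998; DESeq2 adjusted p = 3.1e-07). Pgab_v2_contig_315 had 0.602 and 2.05 CPM on 4 November, against 1422 and 27.0 CPM on 30 October, with P. gabriellae before P. semperflorens on each day. The fit gave -8.73 on the log2 scale (SE 2.58; edgeR adjusted p = 0.9998; DESeq2 adjusted p = 1.1e-07), and -3.79 without P. gabriellae plant 1. Both contigs were at 0.395 CPM or less in the Rivière Blanche plants.

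The opposite pattern was shown by Pgab_v2_contig_27171, the one contig of the set that DESeq2 called higher. It had 17.5 CPM in P. gabriellae and 9.04 CPM in P. semperflorens on 4 November, against 1.02 CPM and 0.261 CPM on 30 October, and 2 reads in each Rivière Blanche plant. The fit gave 4.46 on the log2 scale (SE 0.72; edgeR adjusted p = 0.9998; DESeq2 adjusted p = 7.6e-07). Pgab_v2_contig_18186, with the next highest fitted difference, was high in 1 plant. It had 233 CPM in P. gabriellae plant 3 against 12.9 CPM in P. gabriellae plant 1, but 36.6 CPM in P. semperflorens plant 1 against 44.7 CPM in P. semperflorens plant 3.

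Several of the contigs with the widest gap between the sites had the same order of days in each species. Pgab_v2_contig_905 was at 12.6 CPM in P. gabriellae and 109 CPM in P. semperflorens on 4 November, against 953 CPM and 497 CPM on 30 October. It was at 1.02 and 1.20 CPM at Rivière Blanche. Pgab_v2_contig_1508 was at 52.6 CPM and 32.8 CPM on 4 November, against 727 CPM and 412 CPM on 30 October, again with P. gabriellae before P. semperflorens. It was at 0.113 CPM in P. gabriellae plant 2 and 9.05 CPM in P. semperflorens plant 2. For both, as for the other contigs, the edgeR test of the days gave no call (adjusted p = 0.9998).

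**Figure D4:**
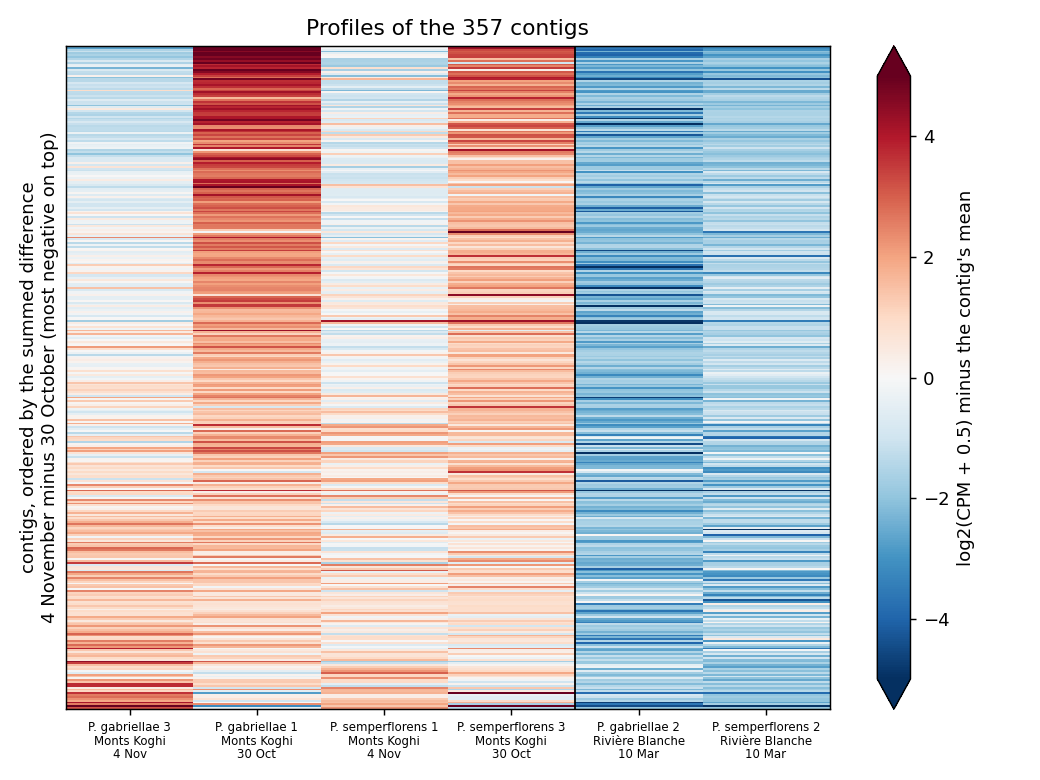
Profiles of the 357 contigs over the 6 libraries, as log2(CPM + 0.5) minus the mean of each contig (colours saturate beyond 5 in either direction). Rows run from the most negative summed difference of 4 November minus 30 October on top; in the upper rows both 30 October columns are redder than both 4 November columns, a pattern met by 202 contigs in all.

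The second comparison, of P. gabriellae with P. semperflorens, showed no direction in the set that held at both sites. By the rule, the species cannot be separated over all 6 plants in any of these contigs, because each Rivière Blanche plant lies below both Monts Koghi plants of the other species. Within Monts Koghi, both P. gabriellae plants lay above both P. semperflorens plants in 63 contigs, against 25.1% of the background. They lay below in 30, or 8.40%, against 19.4%. On TMM-scaled sizes the counts were 58, or 16.2%, with a background of 21.8%, and 30, or 8.40%, with a background of 24%. These shares lay below the background in both directions. Wide ranges at Monts Koghi are in part built into the choice of the contigs, so the counts only describe the set. On the log2 scale the median difference, P. gabriellae minus P. semperflorens, was 0.36 at Monts Koghi (background 0.07) and -0.42 at Rivière Blanche (background 0.12). At Rivière Blanche, where each species has 1 plant, P. gabriellae was lower in 255 of the 357, or 71.4%, against 43.2% (73.4% against 50.3% on TMM-scaled sizes).

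In the fit that included site, edgeR called 0 of the 354 contigs different between the species, and 0% of all 53478. At an unadjusted p under 0.05 it found 18 higher and 13 lower in P. gabriellae, 8.76% of the 354, against 13.1% of all contigs tested (6.74% higher, 6.41% lower). Limma-voom called 0 of the set and 0.18% of all contigs, with 44 of the set at an unadjusted p under 0.05, against 14% of all. DESeq2 called 12 higher and 5 lower, against 5.26% of all contigs (2.95% higher, 2.31% lower). These shares lay near or below those of all contigs. The median log2 fold change was 0.21, but -1.03 without P. gabriellae plant 1, where 75 contigs were lower and 16 higher at an unadjusted p under 0.05, against 12.5% of all contigs. Without P. semperflorens plant 1 the median was -0.30. With all libraries kept it was -0.12 when the fit was blocked by day and -0.26 when it was blocked by replicate number, so its sign rests on single libraries and on the model.

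The contigs with the highest fitted difference of species included 2 that were high in 1 plant. Pgab_v2_contig_5193 had 0.836, 136 and 0.0967 CPM in P. gabriellae plants 3, 1 and 2, against 0.218, 2.35 and 0.103 CPM in P. semperflorens plants 1, 3 and 2. Its species difference was 4.68 on the log2 scale (SE 2.51; edgeR adjusted p = 0.480), and -0.58 without P. gabriellae plant 1. Pgab_v2_contig_6056, at 0 reads in both Rivière Blanche plants, had 4.51 (SE 1.85; edgeR adjusted p = 0.394), and -0.37 without that plant.

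Pgab_v2_contig_1601 was high in both P. gabriellae plants of Monts Koghi. It had 98.0, 40.3 and 0.773 CPM in P. gabriellae plants 3, 1 and 2, against 0.914, 1.01 and 0.515 CPM in P. semperflorens plants 1, 3 and 2. Its species difference was 4.61 (SE 1.43; edgeR adjusted p = 0.290; DESeq2 adjusted p = 0.00021). In P. semperflorens its levels at the sites differed by 0.52 on the log2 scale, in P. gabriellae by 5.64. Nearly all of the gap between the sites was thus in P. gabriellae.

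Pgab_v2_contig_53453 had the most negative edgeR species difference of the set. It had 0.602, 0.232 and 0 CPM in P. gabriellae plants 3, 1 and 2, against 13, 5.89 and 0.155 CPM in P. semperflorens plants 1, 3 and 2. Its species difference was -4.8 (SE 0.72; edgeR adjusted p = 0.121; DESeq2 adjusted p = 6.1e-08). The other two of this kind were Pgab_v2_contig_15969, at -3.56 (SE 0.90), and Pgab_v2_contig_655, at -3.30 (SE 0.93). Their edgeR adjusted p-values were 0.237 and 0.263. On the log2(CPM + 0.5) scale at Monts Koghi, Pgab_v2_contig_655 was lower relative to P. semperflorens, at -4.20, than Pgab_v2_contig_53453, at -3.37.

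The third comparison asked whether the gap between the sites was of the same size in the species. The limit of the rule applies to the mean of the gaps and not to their difference, but both come from the same values. Contigs with wide gaps have more room for unequal ones, so the size of the interaction in the set is a description. Values of all contigs are set beside it for scale only, and an excess over them is no result about the set. The gap was wider in P. gabriellae in 267 of the 357 contigs and wider in P. semperflorens in 90, where it was wider in P. gabriellae in 47.4% of the background. The P. gabriellae gap had a median of 3.30 and a range of 0.32 to 9.42. The P. semperflorens gap had a median of 2.21 and a range of 0.18 to 9.28. Of the 354 contigs tested, 283 had a positive and 71 a negative interaction of species and site (50.7% of all contigs tested were positive), with a median of 1.83 on the log2 scale, against 0.02 for all contigs tested.

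This direction was not kept without P. gabriellae plant 1. Without it, 170 contigs had a positive and 184 a negative interaction, with a median of -0.12, and 59 were positive and 36 negative at an unadjusted p under 0.05, where 7.41% of all contigs reached that level. Without P. gabriellae plant 3 these were 140 and 26, with 8.77% of all contigs. Without any one of the other 3 Monts Koghi plants, the median was 1.47 to 2.75. edgeR's quasi-likelihood test called 0 of the 354, and 0% of all contigs, with 64 positive and 21 negative at an unadjusted p under 0.05 (24.0%; of all contigs 7.08%, 4.29% positive and 2.79% negative). Limma-voom called 0, with 56 at an unadjusted p under 0.05, a level reached by 6.61% of all contigs. DESeq2 called 41 positive and 13 negative, 15.3%, where it called 1.59% of all contigs (1.11% positive, 0.482% negative). Each species has 1 plant at Rivière Blanche, so the spread at that site was not measured. The interaction could not be fitted without P. gabriellae plant 2, so its dependence on that plant was not checked. On the log2 scale, the median of P. gabriellae minus P. semperflorens was 0.36 at Monts Koghi and -0.42 at Rivière Blanche.

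**Figure D5:**
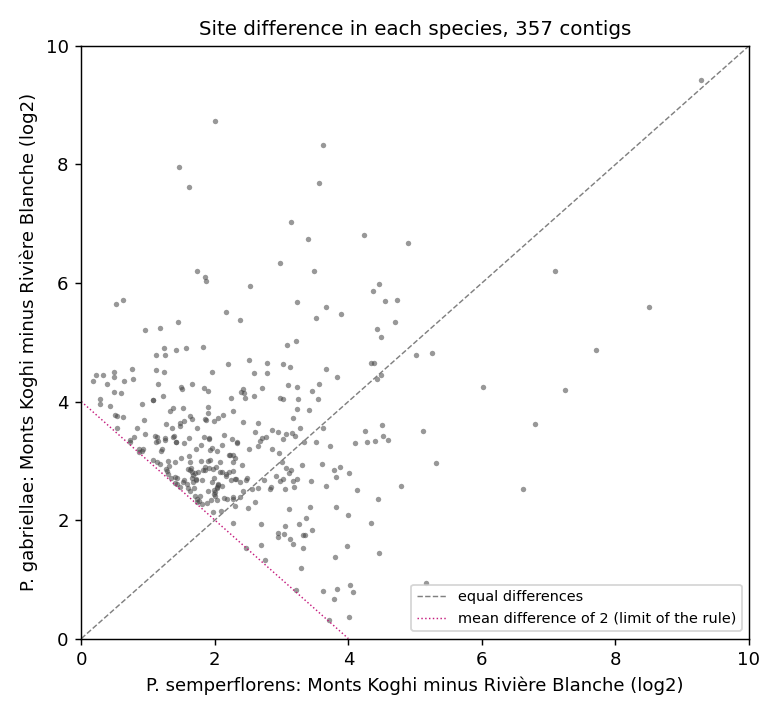
Gap between the sites, Monts Koghi minus Rivière Blanche on the log2(CPM + 0.5) scale, in P. semperflorens (horizontal) and P. gabriellae (vertical) for the 357 contigs. The dashed line marks equal gaps and the dotted line the rule's limit; 267 contigs lie above the dashed line, and contig_404, at 9.28 and 9.42, lies near it at the upper right.

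The 3 contigs with the most positive fitted interaction had no read in P. gabriellae plant 2. Pgab_v2_contig_10947 had 25.6 and 13.2 CPM in P. gabriellae plants 3 and 1, against 0 in P. gabriellae plant 2. In P. semperflorens it had 12.8 and 14.3 CPM in plants 1 and 3, against 5.72 CPM in plant 2. Pgab_v2_contig_21153 had 11.7 and 8.75 CPM against 0 in P. gabriellae, and 7.36 and 8.52 CPM against 5.46 CPM in P. semperflorens, with the Monts Koghi plants before the Rivière Blanche plant. In both, the single P. gabriellae library of Rivière Blanche stood apart from the other 5. Their fitted interactions were 11.71 and 11.52 (edgeR adjusted p = 0.270 for each), values that depend on the small count edgeR adds where a library is at 0. Pgab_v2_contig_653, at 12.11, likewise had no read in P. gabriellae plant 2.

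The most negative interactions differed in profile, and Pgab_v2_contig_45876 had the reverse one. Pgab_v2_contig_45876 had 9.20 and 2.25 CPM in P. gabriellae plants 3 and 1 against 2.19 CPM in P. gabriellae plant 2. In P. semperflorens it had 5.70 and 62.0 CPM in plants 1 and 3 against 0.0515 CPM, or 3 reads, in plant 2. Its interaction was -7.88 (SE 2.36; edgeR adjusted p = 0.590). Pgab_v2_contig_21525 had 390.1 CPM in P. semperflorens plant 3 and 8.23 to 12.9 CPM in the other Monts Koghi plants, against 1.11 CPM in P. gabriellae plant 2 and 0.241 CPM in P. semperflorens plant 2. Its interaction was -6.58 (SE 2.53; edgeR adjusted p = 0.687). Pgab_v2_contig_16286, at -7.05 (SE 3.30; edgeR adjusted p = 0.758), had no read in P. semperflorens plant 2.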

How the data were processed

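PolyA leaf RNA of 6 plants was sequenced as stranded paired-end libraries, per the labels' protocols. The deposited values are raw read counts per contig of a P. gabriellae assembly, which served both species, per the series' design text. The aligner, the counter and any filter: not given in the sources used here. Reads of 1 gene may be split over several contigs, and P. semperflorens reads can be lost where the species differ in sequence. CPM were computed on column totals. Contigs were filtered with filterByExpr by species, scaled by TMM and tested with edgeR 4.0.16 (R 4.3.3), with p-values adjusted by Benjamini-Hochberg over 53478 contigs and called under 0.05. The models were species and site; species, site and their interaction; and species and collection day. A standard error is the log2 fold change over the square root of F. DESeq2 1.42.0 and limma-voom (limma 3.58.1) were alternatives. The fits were checked on simulated counts. No 2 libraries agreed within sampling noise (the lowest ratio of chi-square to degrees of freedom was 112).

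Named contigs are those with the highest mean CPM (5), the widest site difference (5), the smallest spread at Monts Koghi (3), the highest and lowest fitted species difference (3 each), interaction (3 each) and day difference (2 each), and the 2 on either side of the limit. The members and rules were chosen with earlier results of these data known. Contigs at 0 reads in both Rivière Blanche plants were added after their values were seen, as were the ranges of 2-fold and 16-fold. Gene and marker lists set beforehand were not used, because contigs carry no gene names.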

Additional observations from a re-analysis of the deposited data

Results flagged for a closer look

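Values far from the others among the 4 Monts Koghi plants were sought with Dixon's test on CPM, where the distance of the extreme plant to its neighbour is divided by the whole range and compared with the 95% critical value for 4 samples. Of 34 groups of 4 values examined, 12 exceeded it. Chance gives about 1 in 20, and contigs named for extreme fold changes are more prone to it.

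P. gabriellae plant 1 was the extreme plant in 7. These were Pgab_v2_contig_108 at a ratio of 0.851, Pgab_v2_contig_5193 at 0.984, Pgab_v2_contig_6056 at 0.972, Pgab_v2_contig_653 at 0.897, Pgab_v2_contig_16286 at 0.843, Pgab_v2_contig_315 at 0.981 and Pgab_v2_contig_26681 at 0.932. P. semperflorens plant 3, taken on the same day as that plant, was extreme in Pgab_v2_contig_15969 at 0.952, Pgab_v2_contig_45876 at 0.884 and Pgab_v2_contig_21525 at 0.988. P. gabriellae plant 3 was extreme in Pgab_v2_contig_10947 at 0.882 and Pgab_v2_contig_18186 at 0.856. In all 12 the extreme value was the highest.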

How the results depend on the processing

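The number of contigs that met the rule was 185 at a minimum mean of 10 CPM, 967 at a difference of 1 and 128 at a difference of 3, against 357. It was 260 to 415 under the other constants, scalings and the minimum of 1 CPM, and 292 to 581 with 1 Monts Koghi library left out, the 581 without P. semperflorens plant 1. For species, edgeR called 0 of all contigs, against 43 with at least 10 reads in each library, 81 without a site term, 96 by limma-voom and 2812 by DESeq2. With the replicate block and with collection day as a block it called 0. Of the 357, DESeq2 called 17 and the others 0. For the interaction DESeq2 called 850 contigs, 54 of them in the set, and for the days 418 and 84, where all other alternatives called 0; the cause was not tested. Leaving out 1 library gave 0 to 0 calls in each comparison, and the interaction could not be fitted without a Rivière Blanche library. The replicate numbers 1 and 3 each join plants of different days, while the plants numbered 2 share site and day. Deviations from the species means correlated at -0.002, 0.20 and 0.10 for numbers 1, 2 and 3, at 0.18 between the plants of 30 October and at -0.07 between those of 4 November. P. gabriellae plant 3 had its highest correlation with P. semperflorens plant 3, taken on the other day.

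Of 195 fold changes of single contigs under alternatives, 192 kept their direction. Without 1 library the species difference ranged from -0.58 to 5.81 in Pgab_v2_contig_5193 and from -0.37 to 5.60 in Pgab_v2_contig_6056, and the day difference from -1.26 to 4.51 in Pgab_v2_contig_18186, where P. gabriellae plant 3 decided the sign. The rule without P. gabriellae plant 1, and the day counts on TMM-scaled sizes, were chosen after seeing the data; on TMM-scaled sizes 300 contigs met the rule, 236 of them lower on 4 November in P. semperflorens and 189 higher in P. semperflorens plant 3 than in both plants of that day, against 42.6% and 24.8% of the 23459 background contigs. Low reads limit precision most at Rivière Blanche.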
